A study of Mus musculus with 18 samples.

Results

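The genes described here are 10 components of the machinery through which cells sense lipopolysaccharide (LPS), a glycolipid that coats Gram-negative bacteria. They were chosen by name and role. The LPS-binding and co-receptor genes are Lbp, Cd14 and Ly96, and the adaptor genes are Myd88, Ticam1 and Ticam2. The others are the interleukin-1 receptor-associated kinase (IRAK) family genes Irak4, Irak2 and Irak3, and the ubiquitin ligase gene Traf6. The choice of these genes, and of the lists read beside them, was made with earlier results of these data known. Their contrasts with all genes and with other lists are therefore descriptive. All 10 were present among the 36172 genes of the deposited table, and all 10 passed the filter on low counts, as did 14804 genes in all. For Ly96 the filter was not met in Input LPS and for Ticam2 it was not met in Input PBS, whereas the other 8 genes met it in each of the 4 groups.

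The samples came from mice of the genotype Cx3cr1-Cre/Ert2+; NuTRAP+, in which tamoxifen induces Cre under the control of Cx3cr1 and Cre switches on a ribosomal protein tagged with EGFP. Tamoxifen was given for 5 days at about 3 months of age, and 3 to 4 weeks later the mice received 1 intraperitoneal injection of 5 mg/kg LPS or of phosphate-buffered saline (PBS) and brain tissue was taken at 24 h. From 1 hemisphere of each of 9 mice (6 female and 3 male), lysate was kept as input, and tagged ribosomes with their RNA were captured by translating ribosome affinity purification (TRAP) to give the positive fraction, which the study uses as the microglial RNA of the brain. Positive LPS has 5 mice, and the groups Positive PBS, Input PBS and Input LPS have 4 mice each. The males were LPS animal 267 and PBS animals 272 and 273, so sex was not balanced between treatments. All groups carry both alleles and received tamoxifen, the PBS controls included. Other macrophages of the brain that use the Cx3cr1 promoter can also carry the tag, and the input holds the RNA of all cells, tagged ones included.

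In mammals LPS is taken from bacterial membranes by LPS-binding protein (LBP), passed to CD14 and loaded into the pocket of MD-2, the product of Ly96, which then pairs with Toll-like receptor 4 (TLR4). At the plasma membrane the receptor recruits MyD88, on which the IRAK kinases assemble and to which TRAF6 is then drawn, leading to NF-kB and MAP kinase activation. After uptake into endosomes, a step that CD14 promotes, the receptor uses TRAM (Ticam2) to recruit TRIF (Ticam1), which leads to interferon regulatory factors. IRAK-M, the product of Irak3, is a family member known as a brake on this pathway in monocytes and macrophages, and microglia are the main LPS-responsive cells of the brain parenchyma.

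The 17 libraries used held between 22968939 and 35123345 counts each. The Input LPS library of animal 271, with 1252 counts in total, was left out throughout, so that this animal has a Positive LPS library alone. Microglial markers were checked against the fraction labels. The 10 markers summed to between 11992 and 15618 normalised counts (counts divided by the size factor of the library) in Input PBS and to between 231051 and 273485 in Positive PBS, with medians of 15017 in Input LPS and 239777 in Positive LPS, and all 10 were called higher in the positive fraction in either treatment. Of 8 neuronal markers none was called between the fractions in PBS mice (median log2 ratio -0.08), and they summed to between 145448 and 179125 normalised counts in Positive PBS, so the positive fraction held RNA of neurons as well. In bulk samples of this kind, fewer cells of a type and less RNA per cell cannot be told apart.

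LPS raised 7 of the 10 genes in the positive fraction, namely Irak3, Lbp, Cd14, Myd88, Ticam2, Ticam1 and Traf6 in order of fold change, and lowered none. In input it raised 4 of the 10, namely Lbp, Irak3, Cd14 and Myd88. To be called, a gene had to reach an adjusted p under 0.05 and a log2 fold change of over 0.32 in either direction (edgeR, Benjamini-Hochberg over all 14804 genes). By this rule 33.8% of all genes tested were called in the positive fraction, 19.0% higher and 14.9% lower, and 12.4% in input, 7.16% higher and 5.26% lower. The median log2 fold change of the 10 genes was 0.74 in the positive fraction, against 0.01 over all genes tested, and 0.80 in input. The libraries of the LPS and PBS groups did not overlap for 5 of the 10 genes in the positive fraction and for 4 of the 10 in input, against 30.1% and 24.1% of all genes tested.

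**Figure D1:**
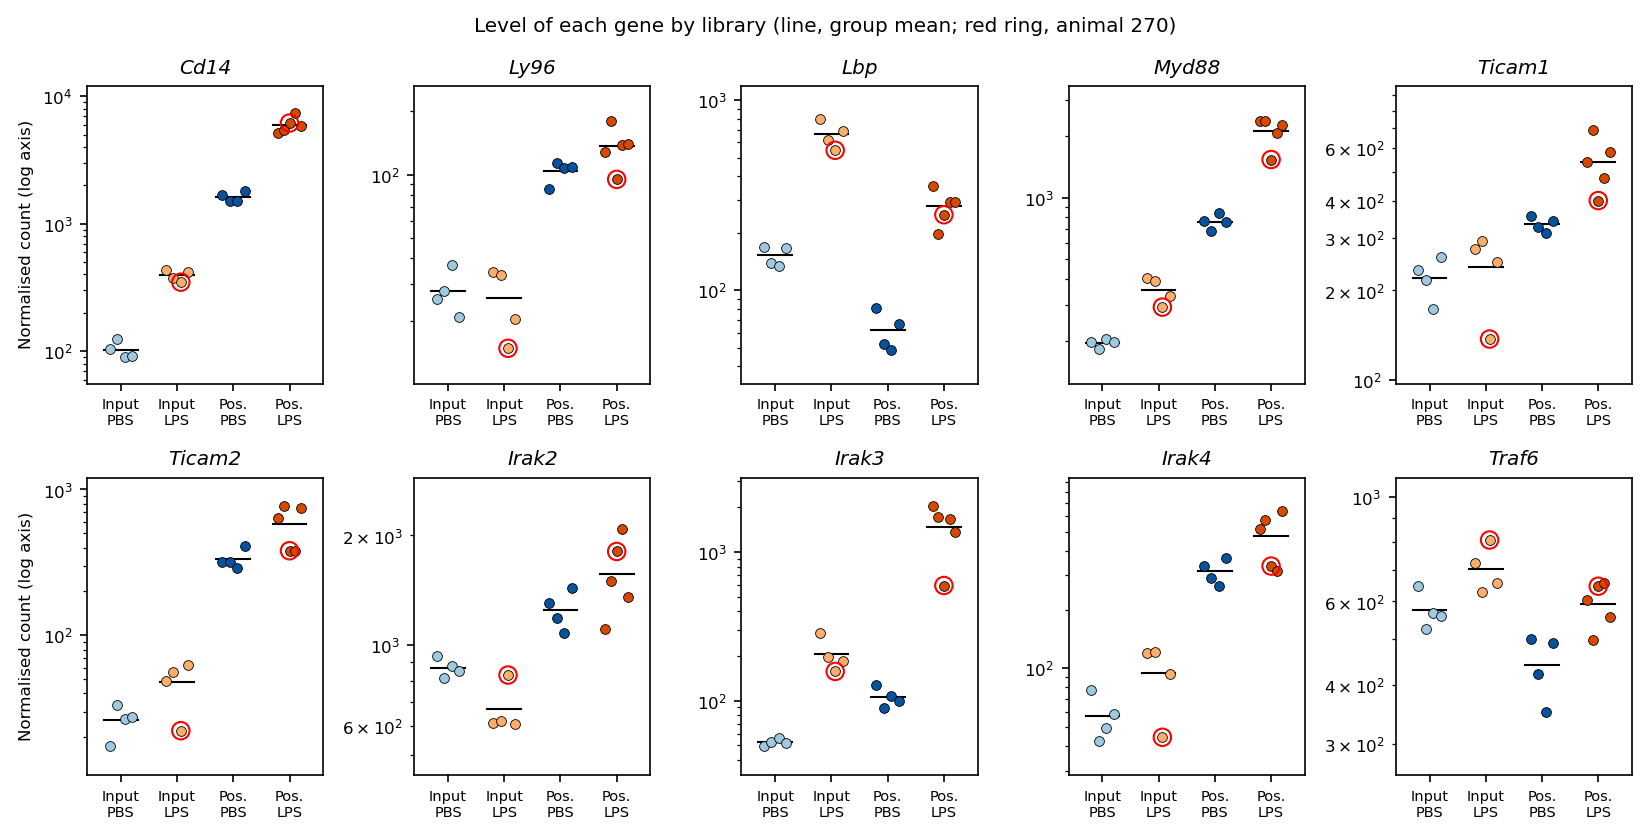
Normalised counts (log axes, which differ between panels) of the 10 genes in each of the 17 libraries, by fraction (input or positive, Pos.) and treatment. Each point is 1 library, the line is the group mean and red rings mark animal 270. Irak3 and Cd14 show the widest gaps between Positive PBS and Positive LPS, while the groups overlap for Ly96, Ticam2, Irak2, Irak4 and Traf6.

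**Figure D2:**
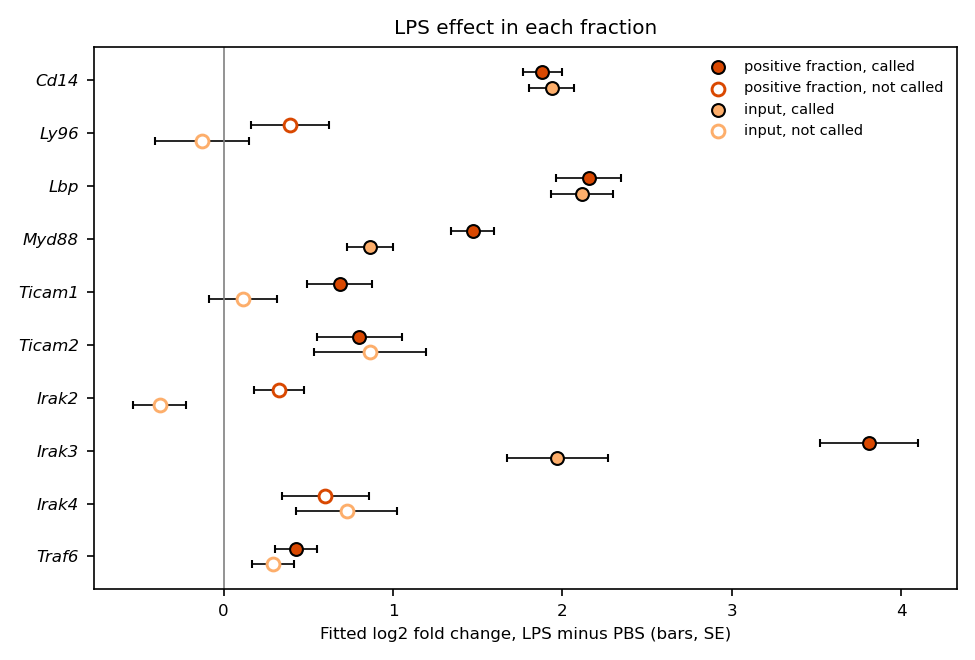
Fitted log2 fold change of LPS over PBS (horizontal axis) with its standard error (bars) for each gene in the positive fraction and in input. Filled points were called and open points were not. Irak3 reached 3.81 in the positive fraction and 1.97 in input, whereas the points for Cd14 and for Lbp lie within the error of each other.

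Among the genes for LPS binding, Lbp (chromosome 2, 158306493 to 158332852, mm10, plus strand) encodes the secreted protein that transfers LPS to CD14. In the positive fraction it had 80.8, 52.5, 48.5 and 66.4 normalised counts in PBS animals 268, 272, 273 and 506, and 356, 198, 250, 290 and 291 in LPS animals 266, 267, 270, 271 and 507. In input the values were 170, 140, 135 and 167 in the same PBS animals and 795, 618, 546 and 690 in LPS animals 266, 267, 270 and 507. All LPS libraries lay above all PBS libraries of their fraction, and the input lay above the positive fraction in each treatment. The log2 fold change with LPS was 2.15 in the positive fraction (standard error (SE) 0.19, adjusted p 1.02e-07) and 2.11 in input (SE 0.183, adjusted p 3.34e-07).

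Cd14 (chromosome 18, 36725067 to 36726654, minus strand) encodes the membrane-anchored co-receptor that hands LPS to MD-2. It had 1675, 1514, 1515 and 1820 normalised counts in the Positive PBS libraries of animals 268, 272, 273 and 506, and 5117, 5465, 6167, 7430 and 5847 in Positive LPS of animals 266, 267, 270, 271 and 507. Input PBS held 104, 125, 90.5 and 91.7, and Input LPS (animals 266, 267, 270 and 507) held 437, 374, 348 and 415. The 4 groups did not overlap, and they rose from Input PBS over Input LPS and Positive PBS to Positive LPS. The rise of Cd14 amounted to 1.88 (log2) in the positive fraction (SE 0.114, adjusted p 1.13e-09) and 1.94 in input (SE 0.132, adjusted p 2.79e-08).

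Ly96 (chromosome 1, 16688456 to 16709605, plus strand), which encodes the LPS-binding subunit of the TLR4 complex, did not pass the threshold in either fraction. It had 85.2, 114, 107 and 109 normalised counts in Positive PBS and 128, 180, 94.8, 138 and 140 in Positive LPS, in the animal order above. In input the counts were low, at 25.6, 27.9, 37.1 and 21.0 in PBS and 34.2, 33.2, 14.8 and 20.5 in LPS animals, and both pairs of groups overlapped. Its log2 fold change was 0.39 in the positive fraction (SE 0.232, adjusted p 0.185) and -0.13 in input (SE 0.278, adjusted p 0.806), where the sign turned without the input library of animal 270 (0.06) or 273 (0.04). Tlr4, the signalling receptor itself, ranged from 283 to 370 normalised counts in Positive PBS and from 288 to 460 in Positive LPS. Animals 266, 267 and 507 had 448, 449 and 460 there, above the PBS range. Animals 270 and 271 had 298.5 and 287.9, within it. The log2 fold change of Tlr4 was 0.25 (SE 0.188, adjusted p 0.302). In input Tlr4 was called higher, from a range of 35.2 to 48.4 in PBS to one of 51.0 to 102 in LPS animals (log2 fold change 0.91, SE 0.226, adjusted p 0.0108).

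Of the adaptors, Myd88 (chromosome 9, 119335988 to 119340040, minus strand), used by most Toll-like receptors and by the interleukin-1 receptor family, was called in both fractions. It had 768, 687, 838 and 757 normalised counts in Positive PBS animals 268, 272, 273 and 506, and 2367, 2357, 1532, 2058 and 2247 in Positive LPS animals 266, 267, 270, 271 and 507. Input PBS held 196, 183, 204 and 198, and Input LPS held 407, 392, 292 and 332. No LPS library fell into the range of the PBS libraries of its fraction, and animal 270 was the lowest LPS animal in both. The log2 fold change was 1.47 in the positive fraction (SE 0.125, adjusted p 6.47e-08) and 0.86 in input (SE 0.135, adjusted p 0.000216).

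Ticam1 (chromosome 17, 56269462 to 56276767, minus strand) encodes TRIF, the adaptor of the endosomal branch. It had 355, 326, 312 and 342 normalised counts in Positive PBS and 538, 687, 400, 476 and 583 in Positive LPS, with no overlap, and the log2 fold change was 0.68 (SE 0.19, adjusted p 0.00788). In input the ranges were 173 to 259 in PBS and 138 to 294 in LPS animals, which overlapped, and the log2 fold change was 0.11 (SE 0.201, adjusted p 0.763). Without animals 506 and 507 the change in the positive fraction was 0.66 and no longer called (adjusted p 0.0505).

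Ticam2 (chromosome 18, 46558231 to 46574533, minus strand) encodes TRAM, the bridge between TLR4 and TRIF. Positive PBS libraries had 319, 321, 288 and 407 normalised counts, and Positive LPS libraries had 635, 769, 380, 380 and 745. In the LPS group 3 libraries lay above the PBS range, and those of animals 270 and 271 lay within it. Its log2 fold change was 0.80 (SE 0.251, adjusted p 0.0161). It was 1.11 without animals 270 and 271 (adjusted p 3.12e-05), and without animals 506 and 507 it was 0.80 and no longer called (adjusted p 0.0543). In input Ticam2 was low, at 17.4 to 33.1 in PBS and 22.2 to 62.9 in LPS animals, and its log2 fold change of 0.86 (SE 0.329) was not called (adjusted p 0.0905). Without animals 270 and 271 it was 1.11 and called (adjusted p 0.00117), and without the input library of animal 270 alone it was 1.10 (adjusted p 0.0221). DESeq2 gave 0.87 in input, also called (adjusted p 0.0364).

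Tirap, the adaptor that brings MyD88 to TLR4, was read beside these. It had 152 to 219 normalised counts in Positive PBS and 327 to 417 in Positive LPS, and its log2 fold change was 1.07 (SE 0.132, adjusted p 5.41e-06). In input it had 105 to 134 in PBS and 145 to 184 in LPS animals, and the log2 fold change of 0.41 was not called (adjusted p 0.062).

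Promoters are shown for Myd88 and Irak3, the adaptor gene and the IRAK family gene with the largest LPS effects in the positive fraction. The sequences are the 250 bases before the start site, 5′ to 3′ on the strand of the gene, from RefSeq on GRCm38.p6, the patched form of the build used by the authors. RefSeq promoters were used for 6 of the 10 genes (Traf6, Irak2, Myd88, Irak3, Irak4 and Ticam1). Those of Cd14, Ticam2, Ly96 and Lbp were not read, so nothing is said of their letters. Capitals mark matches to the core of the interferon-stimulated response element (GAAANNGAAA, either strand), a DNA element found in promoters of interferon-induced genes.
Myd88, chr9:119340019-119340268, minus strand: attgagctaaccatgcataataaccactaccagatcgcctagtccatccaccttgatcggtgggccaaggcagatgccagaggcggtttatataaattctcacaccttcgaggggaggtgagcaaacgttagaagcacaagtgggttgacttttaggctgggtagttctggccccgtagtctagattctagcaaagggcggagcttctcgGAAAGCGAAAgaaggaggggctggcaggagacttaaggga
Irak3, start site 1, chr10:120201598-120201847, minus strand: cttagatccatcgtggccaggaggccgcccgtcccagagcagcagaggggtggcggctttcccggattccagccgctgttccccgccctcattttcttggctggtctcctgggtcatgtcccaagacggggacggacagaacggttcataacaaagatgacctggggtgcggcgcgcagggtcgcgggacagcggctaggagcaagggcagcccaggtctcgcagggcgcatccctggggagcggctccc
Irak3, start site 2, chr10:120202131-120202380, minus strand: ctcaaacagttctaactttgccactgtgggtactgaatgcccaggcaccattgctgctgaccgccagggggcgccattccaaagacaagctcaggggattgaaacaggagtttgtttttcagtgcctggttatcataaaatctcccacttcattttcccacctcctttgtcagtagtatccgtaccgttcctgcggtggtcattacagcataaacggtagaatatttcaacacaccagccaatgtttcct
The Myd88 window held 1 match, from -40 to -31 relative to the start site, and a match was found in 2.98% of all 32851 promoter windows of the same length. None of the windows of the other 5 genes held it. The AP-1 site TGANTCA (6.75% of all windows) and the NF-kB consensus (7.25% of all windows) were found in none of the windows of the 6 genes, which says only that these letters are absent from these windows. A match is a description of the letters and not of binding.

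The IRAK family genes differed most among themselves. Irak4 (chromosome 15, 94543660 to 94568316, plus strand) encodes the kinase that joins MyD88 first. It had 334, 291, 263 and 365 normalised counts in Positive PBS animals 268, 272, 273 and 506, and 517, 575, 334, 314 and 636 in Positive LPS animals 266, 267, 270, 271 and 507. As with Ticam2, the libraries of animals 270 and 271 lay in the PBS range and the other 3 above it. The log2 fold change of 0.60 (SE 0.256) was not called (adjusted p 0.0685). Leaving out animals 270 and 271 gave 0.89, which was called (adjusted p 0.000572), and leaving out the positive library of animal 270 or of animal 271 alone gave 0.71 (adjusted p 0.0362) and 0.72 (adjusted p 0.033). It was also called without the input library of animal 270 (0.60, adjusted p 0.0291). With the animal as a random block in limma voom the change was 0.55 and called (adjusted p 0.0452), as it was with DESeq2 (0.60, adjusted p 0.0461). In input Irak4 had 42.4 to 77.7 normalised counts in PBS and 120, 121, 44.5 and 93.9 in LPS animals 266, 267, 270 and 507. The change there was 0.73 (SE 0.297, adjusted p 0.115), 0.96 without animals 270 and 271 (adjusted p 0.00234) and 0.96 without the input library of animal 270 alone (adjusted p 0.0218).

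Irak2 (chromosome 6, 113638467 to 113695027, plus strand) encodes the kinase that sustains signalling downstream of IRAK4. Its Positive PBS libraries had 1305, 1186, 1084 and 1433 normalised counts and its Positive LPS libraries had 1111, 1499, 1808, 2086 and 1354. Here animals 270 and 271 were the highest, the reverse of their position for Irak4 and Ticam2. Input PBS held 935, 811, 878 and 852, and Input LPS held 614, 622, 829 and 610, where animal 270 alone reached the PBS range. The log2 fold change was 0.33 in the positive fraction (SE 0.148, adjusted p 0.0848) and -0.38 in input (SE 0.157, adjusted p 0.121), neither of them called. The change in the positive fraction was 0.44 and called when Positive LPS of animal 266 was left out (adjusted p 0.0148). It was also called with all 18 libraries in the fit (0.36, adjusted p 0.037) and with limma on the deposited log2 values of 17 libraries (0.35, adjusted p 0.0499). Without animals 270 and 271 the values were 0.09 in the positive fraction (adjusted p 0.543) and -0.50 in input, the latter called lower (adjusted p 0.00537). The change in input was also called when only the input libraries were fitted (-0.38, adjusted p 0.0337).

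Irak3 (chromosome 10, 120141654 to 120201537, minus strand) encodes IRAK-M and had the largest LPS effect of the 10 genes in the positive fraction. Its Positive PBS libraries had 128, 88.7, 107 and 99.6 normalised counts, and its Positive LPS libraries had 2034, 1737, 596 (animal 270), 1681 and 1375. In input the values were 49.4, 52.8, 56.2 and 51.6 in PBS animals and 286, 197, 157 (animal 270) and 184 in LPS animals. The lowest LPS library of each fraction was that of animal 270, and it still lay above all PBS libraries of the fraction. Its log2 fold change was 3.81 in the positive fraction (SE 0.288, adjusted p 1.52e-08), and 1.97 in input (SE 0.296, adjusted p 0.00015). Irak1, the kinase that IRAK4 phosphorylates, was at 1932 to 2285 normalised counts in Positive PBS and 1447 to 2747 in Positive LPS. Animals 266, 267 and 507 had 2747, 2445 and 2315 there, above the PBS range. Animals 270 and 271 had 1551 and 1447, below it. Irak1 was called in neither fraction (log2 fold changes 0.03 and 0.10, adjusted p 0.886 and 0.717).

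Traf6 (chromosome 2, 101678440 to 101700974, plus strand) encodes the ubiquitin ligase on which the IRAK complex converges. It had 500, 421, 350 and 490 normalised counts in Positive PBS and 604, 499, 646, 656 and 558 in Positive LPS. The ranges met at their edges, with animal 267 of the LPS group just under animal 268 of the PBS group. The log2 fold change was 0.43 in the positive fraction (SE 0.122, adjusted p 0.00925), the smallest change of those called. In input Traf6 had 526 to 648 normalised counts in PBS and 628 to 809 in LPS animals, and the change of 0.29 (SE 0.126) was not called (adjusted p 0.135). Traf3, the ligase of the TRIF branch, had a value of -0.22 (log2) in the positive fraction (SE 0.069, adjusted p 0.0145), which lay under the fold threshold and was not called.

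The comparison of the fractions addressed how far each transcript was concentrated on tagged ribosomes. In PBS mice 10 of the 10 genes differed between positive fraction and input, 8 higher and 2 lower (Lbp and Traf6), against 39.8% of all genes tested, 21.0% higher and 18.8% lower. In LPS mice 9 of the 10 were called, the same 8 higher and Lbp lower, against 53.4% of all genes, 27.6% higher and 25.8% lower. The median log2 ratio of the 10 genes was 1.45 in PBS and 2.37 in LPS mice.

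**Figure D3:**
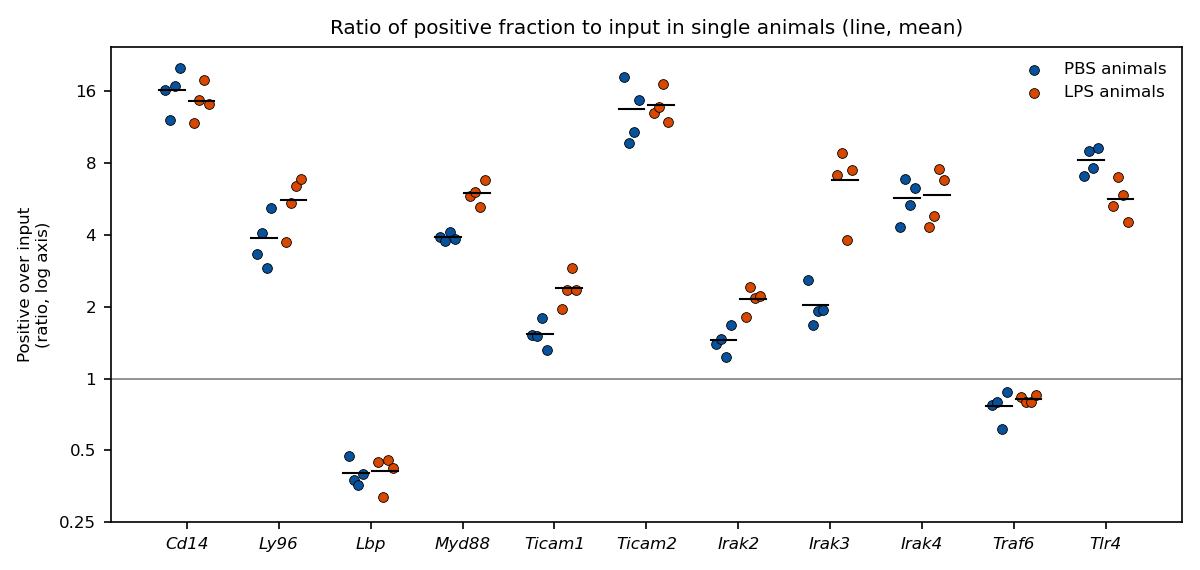
Ratio of the positive fraction to input (normalised counts, log axis) in single animals, for the 10 genes and Tlr4, in the 4 PBS animals and the 4 LPS animals with both libraries. Lines are means, and the grey line marks equal levels. Lbp and Traf6 lie under 1 in each animal, and Cd14 and Ticam2 lie between 9.69 and 19.9. The LPS animals lie above the PBS animals for Myd88, Ticam1, Irak2 and Irak3. The share of all genes separated in this way was not counted.

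Cd14 and Ticam2 were the most concentrated in the positive fraction. The ratio of positive to input for Cd14 was 16.1, 12.1, 16.8 and 19.9 in PBS animals 268, 272, 273 and 506, and 11.7, 14.6, 17.7 and 14.1 in LPS animals 266, 267, 270 and 507. That of Ticam2 averaged 13.4 ± 3.95 (SD) over the 4 PBS mice and 13.9 ± 2.27 over the 4 LPS mice. Irak4 followed in PBS mice at 5.69 ± 1.12 and was at 5.84 ± 1.55 in LPS mice, where Irak3 and Myd88 had higher mean ratios. None of these 3 shifted with treatment beyond the spread of the animals. Their log2 ratios in PBS mice, 3.99 (SE 0.136), 3.67 (SE 0.317) and 2.45 (SE 0.296), lay below the median of 4.26 of the 10 microglial markers and above the median of 1.46 of 8 endothelial markers. The median of 8 markers of border-associated macrophages was 4.02, close to the value of Cd14.

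Lbp ran the other way. Its positive to input ratio was 0.475, 0.376, 0.358 and 0.397 in PBS animals and 0.448, 0.321, 0.458 and 0.421 in LPS animals, each under 1. Its log2 ratio was -1.30 in PBS (SE 0.196, adjusted p 3.03e-05) and -1.26 in LPS mice (SE 0.165, adjusted p 3.6e-06). For comparison, the median log2 ratio in PBS mice was -0.25 for 8 astrocyte markers and -1.99 for 8 oligodendrocyte markers. It was -0.107 for 6 tested monocyte markers and -1.885 for 6 tested neutrophil markers. The ratio of Traf6 averaged 0.766 ± 0.109 (SD) over the 4 PBS mice and 0.82 ± 0.0273 over the 4 LPS mice. The call of Traf6 in PBS mice (log2 ratio -0.38, SE 0.128, adjusted p 0.0196) was lost without the Input PBS library of animal 268 (-0.32, adjusted p 0.0716) or the Positive PBS library of animal 272 (-0.36, adjusted p 0.0506) or 273 (-0.29, adjusted p 0.0762).

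For the other 5 genes the mean ratio was higher in LPS than in PBS mice. The ratio of Myd88 was 3.90 ± 0.155 in PBS and 5.96 ± 0.626 in LPS mice (SD, n = 4 in each). That of Ticam1 was 1.54 ± 0.197 and 2.38 ± 0.395, that of Irak2 was 1.44 ± 0.185 and 2.15 ± 0.252, that of Irak3 was 2.03 ± 0.390 and 6.80 ± 2.13, and that of Ly96 was 3.86 ± 0.995 and 5.603 ± 1.38. The LPS animals all lay above the PBS animals for Myd88, Ticam1, Irak2 and Irak3, and overlapped with them for Ly96. The share of all genes separated in this way was not counted. In the test of the difference of LPS effects given below, Irak3 alone of these genes was called. Animal 270 had the lowest Irak3 ratio of the LPS animals (3.79, against 7.12, 8.81 and 7.47). In PBS mice the call of Ticam1 (log2 ratio 0.60, adjusted p 0.0219), Irak2 (0.53, adjusted p 0.0104) and Irak3 (1.01, adjusted p 0.0117) as higher in the positive fraction was lost without animals 506 and 507, at log2 ratios of 0.67, 0.45 and 1.03 (adjusted p 0.0631, 0.0907 and 0.06). That of Ticam1 was also lost without the Input PBS library of animal 273 (0.50, adjusted p 0.0725), with all 18 libraries (0.47, adjusted p 0.0808) and with the deposited log2 values of 17 libraries (0.48, adjusted p 0.0943). The call of Irak3 was lost with limma voom (0.99, adjusted p 0.197).

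Whether LPS acted differently in the fractions was tested as the difference of the LPS effects. It was called for 1 of the 10 genes, Irak3, against 6.88% of all genes tested, 5.46% higher and 1.42% lower in the positive fraction. The log2 fold change of Irak3 was greater by 1.84 in the positive fraction (SE 0.398, adjusted p 0.00763). Without animals 506 and 507 the difference was 1.79 and not called (adjusted p 0.0938), and limma voom gave 1.76, also not called (adjusted p 0.161). Myd88 (0.61, SE 0.181, adjusted p 0.0514) and Irak2 (0.71, SE 0.216, adjusted p 0.0571) lay just short of the threshold. The difference of Myd88 was called without the Positive LPS library of animal 270 (0.71, adjusted p 0.00477) or the Input LPS library of animal 266 (0.67, adjusted p 0.0435), and that of Irak2 without the Positive LPS library of animal 266 (0.81, adjusted p 0.0132) or the Input LPS library of animal 270 (0.82, adjusted p 0.026). With the animal as a replicate block in edgeR, which uses the fact that the fractions came from the same mice, 4 of the 10 genes were called, with differences of 0.61 for Myd88 (adjusted p 0.00265), 0.58 for Irak2 (adjusted p 0.00583), 0.63 for Ticam1 (adjusted p 0.0171) and the call of Irak3 kept. Over all genes tested the block likewise raised the share called, from 6.88% to 12.9%. Without animals 270 and 271 the differences of Myd88 (0.67, adjusted p 0.00324) and Irak2 (0.58, adjusted p 0.0239) were called beside that of Irak3 (1.94, adjusted p 0.000142), and 9.82% of all genes were called in that fit.

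For the co-receptors the differences were near 0, at -0.06 for Cd14 (SE 0.166, adjusted p 0.9) and 0.04 for Lbp (SE 0.248, adjusted p 0.954), as were those of Ticam2 (-0.06, SE 0.396) and Irak4 (-0.13, SE 0.388), whose errors were wide. Ly96 had a difference of 0.52 (SE 0.362, adjusted p 0.476), Ticam1 of 0.57 (SE 0.276, adjusted p 0.263) and Traf6 of 0.14 (SE 0.175, adjusted p 0.739). For Tlr4 the LPS effect was smaller in the positive fraction (log2 difference -0.66, SE 0.293), which was not called (adjusted p 0.217), and for Tirap it was greater by 0.66 (SE 0.191, adjusted p 0.0433), which was.

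Levels were next set side by side per length, as normalised counts per kilobase of the longest protein-coding transcript in GENCODE vM21. In Positive PBS the order was Cd14 (994 ± 89.5 per kilobase, SD, n = 4), Irak2 (392 ± 47.1), Myd88 (389 ± 31.5), Ly96 (164 ± 19.97), Ticam1 (112 ± 6.29), Irak4 (91.2 ± 13.2), Ticam2 (79.4 ± 12.2), Traf6 (71.4 ± 11.4), Irak3 (34.2 ± 5.32) and Lbp (24.6 ± 5.82). Irak2 and Myd88 were within their spread of each other, as were Irak4, Ticam2 and Traf6. In Positive LPS Cd14 remained the first at 3660 ± 542 per kilobase (n = 5), followed by Myd88 (1078 ± 177), while Irak3 moved from the ninth to the fourth place with 479 ± 177, level with Irak2 (492 ± 120). Lbp reached 110 ± 23.04 and Traf6 96.1 ± 10.6 there, and with Ticam2 (138 ± 45.4) and Irak4 (138 ± 42.1) they were not separable by their spread. In input the order in PBS mice began with Irak2 (272 ± 16.2) and Myd88 (99.6 ± 4.44), and in LPS mice with Lbp (262 ± 42.1) and Cd14 (240 ± 24.2).

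Ratios between genes within a library do not depend on the scaling between libraries. The change of each ratio between groups is read here, since its height also depends on transcript lengths. The ratio of Cd14 to Tlr4 counts was 5.00 ± 0.240 (SD) in the 4 libraries of Positive PBS and 16.6 ± 6.38 in the 5 of Positive LPS, and in input it was 2.61 ± 0.645 in PBS and 5.46 ± 1.15 in LPS mice (n = 4 each). The ratio of Cd14 to Ly96 was 15.97 ± 2.87 in Positive PBS and 46.2 ± 13.4 in Positive LPS. In input it was 3.84 ± 0.951 in PBS and 16.96 ± 5.88 in LPS mice. For both ratios the PBS and LPS libraries of a fraction did not overlap.

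**Figure D4:**
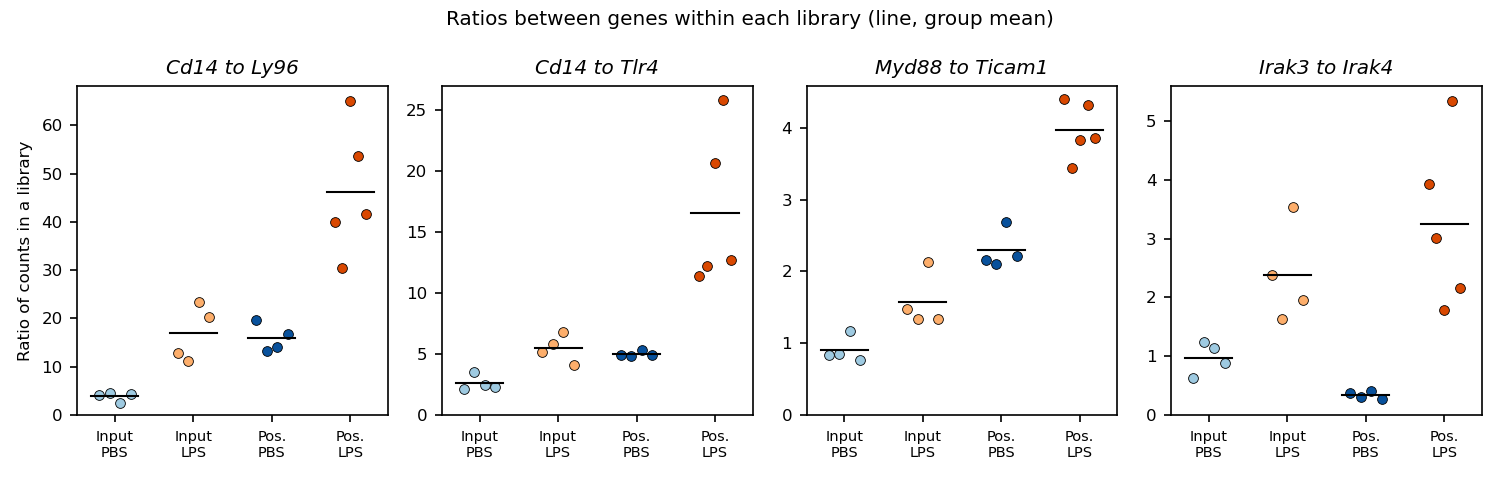
Ratios of counts between pairs of genes within each library, by fraction (input or positive, Pos.) and treatment. Each point is 1 library and the line is the group mean. All 4 ratios are higher in LPS than in PBS libraries of the same fraction, and Irak3 to Irak4 is at most 0.408 in each Positive PBS library and at least 1.79 in each Positive LPS library.

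The ratio of Myd88 to Ticam1, the adaptors of the 2 branches, was 2.29 ± 0.268 in Positive PBS, 3.97 ± 0.397 in Positive LPS, 0.906 ± 0.184 in Input PBS and 1.57 ± 0.378 in Input LPS. That of Irak3 to Irak4 was 0.342 ± 0.0636 in Positive PBS, 3.25 ± 1.44 in Positive LPS, 0.975 ± 0.272 in Input PBS and 2.38 ± 0.831 in Input LPS. In PBS mice the Irak3 to Irak4 ratio was lower in the positive fraction (0.273 to 0.408) than in input (0.635 to 1.24). In LPS mice the fractions overlapped (1.79 to 5.34 and 1.63 to 3.54). The Myd88 to Ticam1 ratio ranged from 2.10 to 2.69 in Positive PBS and from 3.43 to 4.4 in Positive LPS.

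The LPS animals differed among themselves. In Input LPS the library of animal 270 was the lowest of the 4 for 8 of the 10 genes, including Cd14, Lbp, Myd88 and Irak3, and the highest for the other 2, Irak2 and Traf6. In Positive LPS the same animal was the lowest of the 5 for 4 of the 10 genes (Ly96, Myd88, Ticam1 and Irak3) and the highest for none. Animal 271 was the lowest there for Ticam2 and Irak4 and the highest for Cd14, Irak2 and Traf6. Among the PBS libraries, that of animal 273 was the lowest of Positive PBS for 6 of the 10 genes, within narrower ranges. Without animals 270 and 271, LPS called 8 of the 10 genes in the positive fraction (the 7 named above and Irak4) and 7 in input, where Ticam2 and Irak4 were added as higher and Irak2 as lower. Of the 14873 genes of that fit, 33.8% were called for the positive fraction and 13.1% for input. The cause of the departure of these libraries was not tested.

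The members were then read against other genes of the pathway. In the positive fraction LPS raised 1 of 8 genes for TLR4, its homologue and accessory proteins of these or other Toll-like receptors (median log2 fold change 0.06). This was Cd180, the TLR4-like receptor of B cells and macrophages (0.76, SE 0.229, adjusted p 0.0134). Its counts ranged from 408 to 801 in Positive PBS and from 671 to 1090 in Positive LPS. In input 1 of the 8 was raised, which was Tlr4. Among 6 genes for LPS uptake, binding and breakdown, 4 were raised and 2 lowered in the positive fraction, and 3 raised and 1 lowered in input.

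Aoah, the enzyme that inactivates LPS by removing acyl chains, rose the most of these. It had 83.8 to 119 normalised counts in Positive PBS and 712 to 3939 in Positive LPS. The log2 fold change was 4.70 in the positive fraction (SE 0.492, adjusted p 7.29e-07) and 3.42 in input (SE 0.572, adjusted p 0.000416). Pltp, the phospholipid transfer protein related to LBP, fell the most, from between 1991 and 2433 to between 408 and 495 in the positive fraction (log2 fold change -2.33, SE 0.083, adjusted p 1.11e-12) and by 1.03 on the log2 scale in input (SE 0.086, adjusted p 2.38e-07). Pltp and Lbp thus moved in opposite directions in both fractions.

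**Figure D5:**
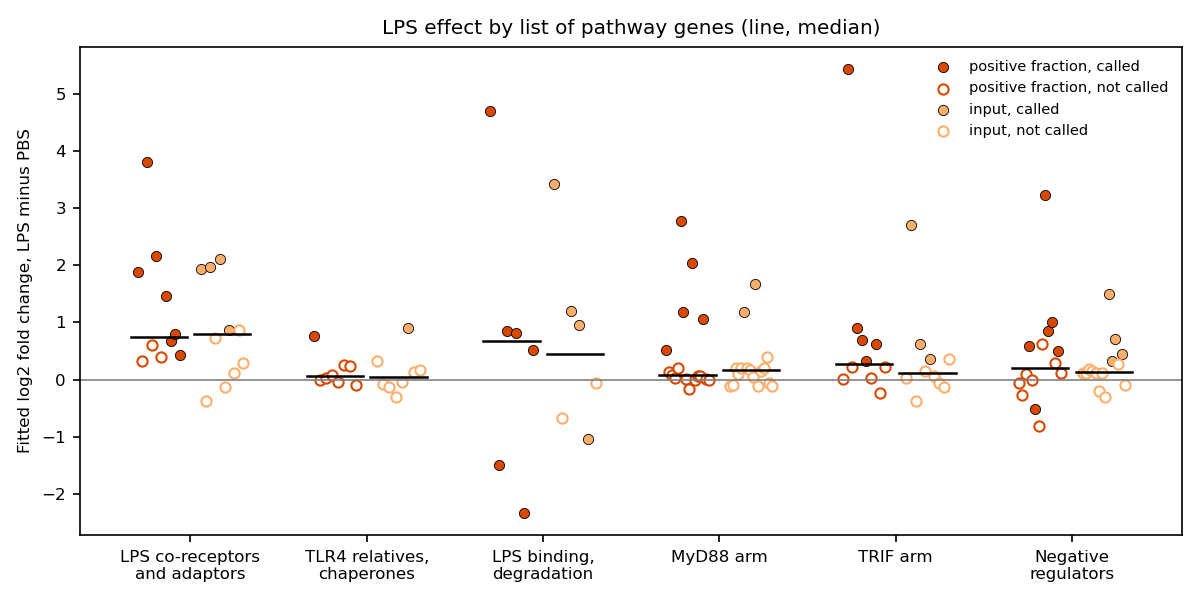
Fitted log2 fold change of LPS over PBS for each tested gene of 6 lists, in the positive fraction and in input. Filled points were called, open points were not, and lines are medians. The median of the 10 co-receptor and adaptor genes was 0.74 in the positive fraction, against 0.06 to 0.67 in the other lists, and Ikbke and Aoah lie at the top.

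Among 16 genes of the MyD88 arm, Tirap included, 5 were raised in the positive fraction and 2 in input, none was lowered, and the medians were 0.08 and 0.17. Map3k8, the kinase (Tpl2) that couples NF-kB signalling to the ERK pathway, rose from between 49.8 and 130 to between 416 and 834 normalised counts in the positive fraction (log2 fold change 2.77, SE 0.271, adjusted p 3.51e-07). In input the most raised was Pik3ap1, an adaptor between Toll-like receptors and phosphoinositide 3-kinase (1.67, SE 0.226, adjusted p 5.17e-05). Of 10 genes of the TRIF arm, Traf3 included, 5 were raised in the positive fraction and 3 in input, with medians of 0.28 and 0.11. Ikbke, a kinase of interferon regulatory factors, rose from between 17.9 and 30.6 to between 266 and 1671 normalised counts in the positive fraction (log2 fold change 5.43, SE 0.475, adjusted p 9.33e-08), and by 2.71 in input (SE 0.445, adjusted p 0.000359).

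Of the 15 other negative regulators listed 14 were tested. In the positive fraction 5 were raised and 1 lowered, and in input 4 were raised, with medians of 0.20 and 0.13. The shares of all genes called were 33.8% and 12.4%. Tnfaip3, which encodes the ubiquitin-editing enzyme A20, rose from between 273 and 405 to between 2515 and 5154 normalised counts in the positive fraction (log2 fold change 3.22, SE 0.225, adjusted p 5.86e-09), and the change in input was 1.49 (SE 0.231, adjusted p 0.000192). Sarm1, a TIR-domain protein with an adaptor-like fold, fell from between 1069 and 1174 to between 643 and 938 (log2 fold change -0.52, SE 0.118, adjusted p 0.00188). Between the fractions Sarm1 was not called, at log2 ratios of 0.12 in PBS and -0.21 in LPS mice (edgeR, adjusted p 0.449 and 0.139). Among the genes of these lists, Ikbke and Aoah had larger LPS effects than Irak3 (3.81) in the positive fraction.

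Some markers of other cells were called with LPS as well, and their part in these results was not tested. The counts below stand beside 33.8% of all genes tested in the positive fraction, 19.0% higher and 14.9% lower. In input the share was 12.4%, 7.16% higher and 5.26% lower. Neutrophil markers (8 genes) summed to between 140 and 328 normalised counts in Positive PBS and between 432 and 1159 in Positive LPS, and to between 470 and 842 in Input PBS and between 771 and 1678 in Input LPS. Of the 6 tested, 5 rose in each fraction, and none of the 8 was at 0 in all libraries of a group. Monocyte markers (8 genes) summed to 1289 to 3163 in Positive PBS and 723 to 1722 in Positive LPS, with 1 of 6 tested genes raised and 2 lowered. Markers of border-associated macrophages (8 genes) summed to 5125 to 9973 and 4375 to 7261, with 1 raised and 4 lowered. The microglial markers summed to 197430 to 274857 in Positive LPS, a range that held that of Positive PBS, with 3 of the 10 raised and 4 lowered. Oligodendrocyte markers (8 genes) summed to 103971 to 163769 in Input PBS and 66776 to 95500 in Input LPS, where 7 of 8 were lowered (median log2 fold change -0.71), and 2 of 8 were lowered in the positive fraction. Of 8 neuronal markers 4 were lowered in the positive fraction (median -0.29) and none was called in input (median -0.13). Of 8 astrocyte markers 1 was raised and 3 lowered in the positive fraction and 2 were raised and 2 lowered in input (medians -0.29 and -0.09). Gfap, the filament protein of reactive astrocytes, rose by 1.95 and 2.07 (log2), whereas Fabp7 had log2 fold changes of -1.94 and -1.60. Of 8 endothelial markers 1 was raised and 2 lowered in the positive fraction, and 2 were raised and 1 lowered in input.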

How the data were processed

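RNAseq of input and positive TRAP fractions was analysed from 1 table. The authors trimmed reads, aligned them by strand to mm10 in Strand NGS and deposited estimated counts of reads for RefSeq genes. Fractions of reads were present in 81.7% of nonzero values, so the counts were rounded. The deposited log2 values, which the authors scaled with DESeq (per the submitters' processing notes) and centred per gene, were used as an alternative. Counts were divided by median-of-ratios size factors over 15766 genes (0.764 to 1.32). A gene entered the fit if every library of some group had more than 20 normalised counts, and these genes were fitted with edgeR 4.0.16 (glmQLFit, glmQLFTest, R 4.3.3) with 1 mean per group, 13 residual degrees of freedom and 5 contrasts. Analysis of variance with the same adjusted p and fold thresholds is given in the methods of the study, and the quasi-likelihood test takes its place because the values are counts. The SE of a log2 fold change is its size divided by the root of F.

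Fractions of the same animal are paired by the animal number in the labels, and deviations from the group means correlated between fractions in 8 of 8 animals (0.16 to 0.519). The design has no block, and blocked fits are alternatives. The alternatives were DESeq2 1.42.0, TMM, other filters, all 18 libraries, only the libraries compared, sex as a covariate, each library or animals 506 and 507 left out, and the deposited values. Those chosen after seeing the data were limma voom (limma 3.58.1) without a block, the deposited log2 values of 17 libraries, and the fit without animals 270 and 271. The genes and lists were chosen with earlier results of these data known. All 10 genes, Tlr4, Irak1, Tirap and Traf3 are named, and of each further list the called genes with the largest rise and fall in each LPS effect. Genes discussed as lowest or highest in single libraries were described after their values were seen. Coordinates are those of the deposited table. The fit was tested on simulated data.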

Additional observations from a re-analysis of the deposited data

Results flagged for a closer look

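Irak2 stood apart in 1 library of Input LPS. The library of animal 270 had 829 normalised counts, whereas the other 3 had 610, 614 and 622, and its gap to the nearest of them took a share of 0.944 of the range of the group. In all, 40 groups of a gene were looked at in this way, and chance sets a library apart in about 5% of groups. In the positive fraction animal 270 had 1808 normalised counts of Irak2, the next to highest of 5.

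The LPS effect on Irak3 differed between the fractions, with a log2 fold change that was greater by 1.84 in the positive fraction (edgeR, SE 0.398, adjusted p 0.00763). The ratio of positive to input was higher in 4 of 4 LPS animals than in each of the 4 PBS animals.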

How the results depend on the processing

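Results held their direction and call in most alternatives. Of 1490 values for the 10 genes, 1379 kept both. A further 38 lost the call and 36 gained it at the same sign, whatever the size of the change. In 37 the sign turned, most of them values near 0 that were not called. When single libraries were left out, the number of the 10 genes called was 7 to 8 for LPS in the positive fraction, 4 to 6 in input, 9 to 10 between the fractions in PBS mice, 9 in LPS mice and 1 to 2 for the difference of LPS effects. Over all genes these fits called, in the same order, 4432 to 5121, 1454 to 1978, 5297 to 6067 and 7447 to 8129, and 749 to 1263 for the difference. That difference was called for 3 of the 10 with DESeq2, TMM scaling, sex as a covariate or without animals 270 and 271 (1360, 1105, 1234 and 1460 of all genes, against 1018), for 2 with the filter at 50, the full 18 libraries or the deposited log2 values of 17 libraries (1038, 903 and 1051 of all genes), for 4 with the replicate block, and for 0 without animals 506 and 507 (edgeR) and with limma voom, each with 3 of the 10 at an unadjusted p under 0.05. Without animals 270 and 271, LPS in input called 7 of the 10. Over all genes, the fit without animals 506 and 507 called 1077 for LPS in input and 323 for the difference, and the replicate block called 1908 for the difference.

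The deposited log2 values of 18 libraries, fitted with limma, include the nearly empty library, and they called 0 of the 10 genes for both LPS effects, for the difference and between fractions in PBS mice (1, 0, 0 and 4 at an unadjusted p under 0.05 for the positive fraction, input, difference and PBS mice). They called 62 and 0 genes of all for LPS in the positive fraction and input, 124 and 576 between the fractions in PBS and LPS mice, and 0 for the difference. The LPS effect in input turned to -0.70 for Myd88, -1.36 for Ticam1, -0.17 for Ticam2, -0.49 for Irak4 and -1.47 for Traf6, the log2 ratio of positive to input in LPS mice to 0.39 for Lbp and 1.43 for Traf6, and the difference to 1.57 for Cd14, 0.96 for Ticam2 and 1.09 for Irak4. Other signs that turned were of uncalled values. These were Ly96 for LPS in input (0.062 without animals 270 and 271, and -0.30 to 0.0616 with single libraries left out), Ticam1 there (-0.0016 to 0.30), and the differences of Cd14 (0.0867 without animals 506 and 507, and -0.16 to 0.0012), Lbp (-0.0126 without animals 270 and 271, and -0.059 to 0.20), Ticam2 (0.08 without animals 506 and 507, 0.0043 without animals 270 and 271, 0.0798 with the replicate block, and -0.30 to 0.10) and Irak4 (0.0178 with the replicate block, and -0.36 to 0.0093). The replicate block changed no call of the genes other than those named for the difference and for Irak4. With limma on 17 libraries of deposited values Ticam2 in the positive fraction was not called (0.79, adjusted p 0.0633). That fit, which leaves out the nearly empty library, called 4869 and 1714 genes of all for LPS in the positive fraction and input. It called 6174 and 8190 between the fractions in PBS and LPS mice, and 1051 for the difference. The cause of the changes between the fits was not tested. Low counts in input, down to 14.8 for Ly96, 17.4 for Ticam2 and 42.4 for Irak4, limit the precision there.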
